A study of Mus musculus with 68 samples.

Results

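A set of 9 genes that handle acid, bicarbonate, sodium, water or sugar phosphate in colonocytes, the absorptive cells of the colon, was followed across 23 mouse intestinal specimens: Car1, Car2, Car4, Aqp8, Aqp4, Atp12a, Scnn1a, Scnn1b and Slc37a2. They were chosen by name, as the 9 rows with these gene symbols among the 23356 rows of the expression table, and all 9 were found and passed the filter on low values in each fit. The choice was made with earlier results of these data known. The study asked which genes differ with Cftr deficiency in Apc wildtype and in ApcMin mice. Cftr encodes an epithelial chloride and bicarbonate channel, and Apc a negative regulator of Wnt signalling whose Min allele gives intestinal tumours.

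The mice were C57BL/6 animals aged 3 months. ApcMin mice gave 2 colon and 2 ileum tumours labelled Cftr knockout, 2 colon and 2 duodenal tumours from Cftr heterozygotes, which the labels call a knockdown, and 2 colon and 2 ileum tumours with wildtype Cftr. Apc wildtype mice labelled Cftr knockout gave 1 colon tumour, 2 duodenal tumours, 2 normal colons and 2 normal duodena, and Apc wildtype mice with wildtype Cftr gave 2 normal colons and 2 normal duodena. The protocol gives the knockout of the Apc wildtype mice as a floxed Cftr allele with Cre driven by the Villin promoter, which drives expression in intestinal epithelium, so other cells of these tissues keep Cftr. The Cftr allele of the ApcMin mice is not given in the sources used here. Normal colon is labelled whole tissue and normal duodenum epithelium, while the study's design text describes colon epithelial cells and duodenum without villi.

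In the surface cells of the colon, carbonic anhydrases make bicarbonate and protons from carbon dioxide, and exchangers in the apical membrane trade these ions for chloride and sodium. The epithelial sodium channel lets sodium in at the apical side, the sodium pump drives it out at the other, and water follows through aquaporins and between the cells. The nongastric proton pump takes up potassium in exchange for protons in the distal colon. Aldosterone, acting through the mineralocorticoid receptor, raises sodium absorption by this route.

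The table gives FPKM, fragment counts scaled to transcript length and library size, so levels can be compared between genes. Changes are given on the log2(FPKM + 1) scale, which understates those of low genes, and a gene was called at a Benjamini-Hochberg adjusted p under 0.05. Relative depth, read from the steps between low values, ranged from 0.719 to 1.31 over the 68 columns. The design text speaks of 23 mice, and of 3 normal mice per Cftr genotype where 2 are labelled, but the 23 specimens carry 10 animal numbers, and for each ApcMin genotype the tumours of an organ all carry 1 animal number, so genotype and animal cannot be told apart there. P-values measure the spread between these specimens. Cftr itself stood at 11.2 to 77.2 FPKM in the Apc wildtype specimens labelled knockout, tumours included, and at 21.7 to 32.0 FPKM in those labelled wildtype. In normal colon it was at 30.5 and 25.9 FPKM in knockouts, against 22.2 and 21.7 FPKM in wildtypes. Normal duodenum held 33.0 and 47.2 FPKM in knockouts, against 31.3 and 32.0 FPKM in wildtypes. Its level over the whole gene was thus not lower under the knockout label in either normal tissue. The sources used here do not say which exon was removed. Xist, made from the inactive X chromosome of females, stood at 24.0 to 55.6 FPKM in the ApcMin tumours and at 0.024 to 0.461 FPKM in normal tissue, so sex and tumour cannot be told apart in those comparisons. It was at 0.335 FPKM in the Apc wildtype colon tumour. The wildtype duodenum specimens differed by about as much as their lanes and were counted as 1 sample. Their SD on the log2 scale was 0.0840 in run 1, against 0.0858 expected, and 0.0914 in run 2, against 0.0882 expected.

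Upstream sequence was at hand for 4 of the 9 genes, from RefSeq on build GRCm38.p6, and is shown because Car4, Aqp8 and Slc37a2 were called lower in ApcMin heterozygous and wildtype colon tumours while Scnn1b was not. Each line holds the 250 bases before the start annotated by RefSeq, which differs by some bases from the gene start given further on for Car4 and Aqp8, 5′ to 3′ on the gene's strand. The windows lie at chr11:84957504-84957753 on the plus strand for Car4, chr7:123462044-123462293 on the plus strand for Aqp8, chr7:121864788-121865037 on the plus strand for Scnn1b and chr9:37255739-37255988 on the minus strand for Slc37a2. Capitals mark matches, on either strand, to TTTAT, the core of sites for caudal homeobox factors, to TGTTCT, a short site for steroid receptors such as the mineralocorticoid receptor, and to CTTTG, the core of sites for the TCF factors of Wnt signalling.
Car4: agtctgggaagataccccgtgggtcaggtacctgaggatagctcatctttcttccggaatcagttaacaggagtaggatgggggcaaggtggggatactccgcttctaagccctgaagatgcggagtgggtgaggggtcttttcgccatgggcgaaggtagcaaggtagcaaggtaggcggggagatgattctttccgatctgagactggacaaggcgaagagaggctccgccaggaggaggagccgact
Aqp8: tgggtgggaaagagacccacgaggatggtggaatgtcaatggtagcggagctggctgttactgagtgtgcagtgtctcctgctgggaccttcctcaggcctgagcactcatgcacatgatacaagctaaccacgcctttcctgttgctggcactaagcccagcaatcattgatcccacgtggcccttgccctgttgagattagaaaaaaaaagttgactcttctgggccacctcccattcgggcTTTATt
Scnn1b: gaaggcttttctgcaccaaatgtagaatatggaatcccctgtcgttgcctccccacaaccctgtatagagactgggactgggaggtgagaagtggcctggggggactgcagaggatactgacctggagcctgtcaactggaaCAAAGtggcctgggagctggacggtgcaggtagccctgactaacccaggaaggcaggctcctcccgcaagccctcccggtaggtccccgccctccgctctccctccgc
Slc37a2: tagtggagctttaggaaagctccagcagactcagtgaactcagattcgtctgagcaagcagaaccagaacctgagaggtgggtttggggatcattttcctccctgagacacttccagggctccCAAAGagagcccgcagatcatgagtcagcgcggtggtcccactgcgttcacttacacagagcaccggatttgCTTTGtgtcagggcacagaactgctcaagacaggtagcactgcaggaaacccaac
Aqp8 held 1 match to TTTAT, which begins 6 bases before the start, Scnn1b held 1 match to CTTTG and Slc37a2 held 2. Car4 held no match to any of the 3 motifs, and none of the 4 windows held TGTTCT. No match overlapped another. Over 32851 windows of the same length, 37.3% held TTTAT, 48.6% CTTTG and 16.1% TGTTCT, so these short motifs are common, a match is a description of the letters only, and no match says only that these letters are not in this window.

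Together the 9 genes summed to 348 to 3218 FPKM in the 7 colon tumours, to 3929 to 6718 FPKM in the 4 normal colons and to 71.0 to 467 FPKM in the 12 small-intestinal specimens. Car1, a cytosolic carbonic anhydrase abundant in colon epithelium and also in red cells, reached the highest level of the 9. It stood at 314 and 2154 FPKM in the ApcMin knockout colon tumours, at 81.6 and 94.6 FPKM in the heterozygous ones, at 124 and 2119.5 FPKM in the wildtype ones and at 369 FPKM in the Apc wildtype tumour. In normal colon it stood at 3957 and 2297 FPKM in specimens labelled knockout, against 1241 and 912 FPKM in wildtype. The second tumour of both pairs thus lay within the range of the normal colons, while the first lay below it. In the small intestine Car1 ranged from 0.799 to 37.4 FPKM, with the highest value in ApcMin knockout ileum tumour 2. That tumour also had the highest Aqp8 and Atp12a of the small intestine, at 11.6 and 5.17 FPKM. Its Hoxb13, a homeobox gene of the distal hindgut, was at 22.4 FPKM, against 0.383 FPKM in ileum tumour 1 of that genotype. Distal hindgut Hox genes summed to 35.2 FPKM in it, against 0.639 FPKM in ileum tumour 1. The cause was not tested. Car2, the widespread cytosolic form, was more even: 220 and 342 FPKM in ApcMin knockout tumours, 210 and 171 in heterozygous ones, 106 and 428 in wildtype ones and 203 in the Apc wildtype tumour. Normal colon had 556 and 763 FPKM in knockouts, against 749 and 642 FPKM in wildtypes, and no colon tumour reached the lowest of these.

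Car4, the carbonic anhydrase anchored to the outer face of the apical membrane, was the only one of the 9 above 200 FPKM in normal duodenum. There it had 421 and 292 FPKM in specimens labelled knockout, against 264 and 261 FPKM in wildtypes. Its level in normal colon was 788 and 1725 FPKM in knockouts, against 1248 and 1043 FPKM in wildtypes. Colon tumours held 168 and 184 FPKM (ApcMin knockout), 109 and 110.0 FPKM (heterozygous), 43.4 and 280 FPKM (ApcMin wildtype) and 73.4 FPKM (Apc wildtype), so all 7 lay below every normal colon and 6 of the 7 below every normal duodenum.

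Aqp8, a water channel of surface colonocytes, and Aqp4, a water channel of the basolateral membrane, were both colonic. Aqp8 stood at 110 and 154 FPKM in ApcMin knockout colon tumours, 101 and 80.3 in heterozygous ones, 21.4 and 266 in wildtype ones and 83.3 in the Apc wildtype tumour. Normal colon held 845 and 1236.5 FPKM in knockouts, against 960.2 and 789 FPKM in wildtypes, and no colon tumour reached them. Aqp4 stood at 72.8 and 158 FPKM in ApcMin knockout tumours, 27.5 and 33.6 in heterozygous ones, 28.7 and 94.8 in wildtype ones and 37.6 in the Apc wildtype tumour. Its normal colon levels were 237 and 240.2 FPKM in knockouts, against 172 and 118 FPKM in wildtypes, and 1 tumour, ApcMin knockout tumour 2, lay within that range. In the small intestine neither passed 11.6 FPKM.

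The sodium and proton carriers ran at lower levels. Scnn1a, the pore-forming alpha subunit of the sodium channel, stood at 28.6 and 23.1 FPKM in ApcMin knockout colon tumours, 17.2 and 18.2 in heterozygous ones, 10.4 and 24.1 in wildtype ones and 20.1 in the Apc wildtype tumour. Normal colon held 51.9 and 63.8 FPKM in knockouts, against 54.3 and 47.3 FPKM in wildtypes. Every tumour lay below every normal colon, and the normal colons of both genotypes overlapped. Scnn1b, the beta subunit that the open channel also needs, was far scarcer: 4.50 and 2.65 FPKM in ApcMin knockout tumours, 5.64 and 7.03 in heterozygous ones, 3.01 and 4.63 in wildtype ones and 3.74 in the Apc wildtype tumour, against 2.11 to 2.87 FPKM in the 4 normal colons. Of the 7 tumours, 6 lay above every normal colon, the exception being ApcMin knockout tumour 2. In normal duodenum Scnn1b was listed at 0 or at most 0.00863 FPKM, and in small-intestinal tumours it reached 1.14 FPKM.

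Atp12a, the catalytic subunit of the nongastric proton pump, differed widely within groups. It stood at 55.0 and 2.94 FPKM in ApcMin knockout colon tumours, 29.7 and 26.7 in heterozygous ones, 10.1 and 0.689 in wildtype ones and 22.3 in the Apc wildtype tumour. Normal colons labelled knockout held 15.6 and 296 FPKM, against 156 and 207 FPKM in wildtypes. The first knockout colon was thus below 4 of the 7 tumours. Slc37a2, a sugar-phosphate carrier of the endoplasmic reticulum membrane, was also lowest in the first knockout colon: 23.3 and 94.5 FPKM in knockout colons, against 165 and 168 FPKM in wildtypes, with both knockouts below both wildtypes. Its colon tumours held 24.3 and 2.07 FPKM (ApcMin knockout), 5.55 and 4.92 FPKM (heterozygous), 1.39 and 0.804 FPKM (ApcMin wildtype) and 7.60 FPKM (Apc wildtype). In the small intestine 1 specimen stood out, with 41.2 FPKM of Slc37a2 in Apc wildtype duodenal tumour 2 against 0.445 to 7.25 FPKM in the other small-intestinal specimens.

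Ordered by group mean, the 12 groups were not cleanly ranked for any member. Of the 11 steps between neighbouring groups, the specimens stood apart at 5 for Car4, Aqp4 and Scnn1a, at 4 for Car1, Aqp8 and Scnn1b and at 3 for Car2, Atp12a and Slc37a2. The remaining neighbours overlapped. A normal colon group led the order for 8 members, and the ApcMin heterozygous colon tumours led it for Scnn1b.

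**Figure D1:**
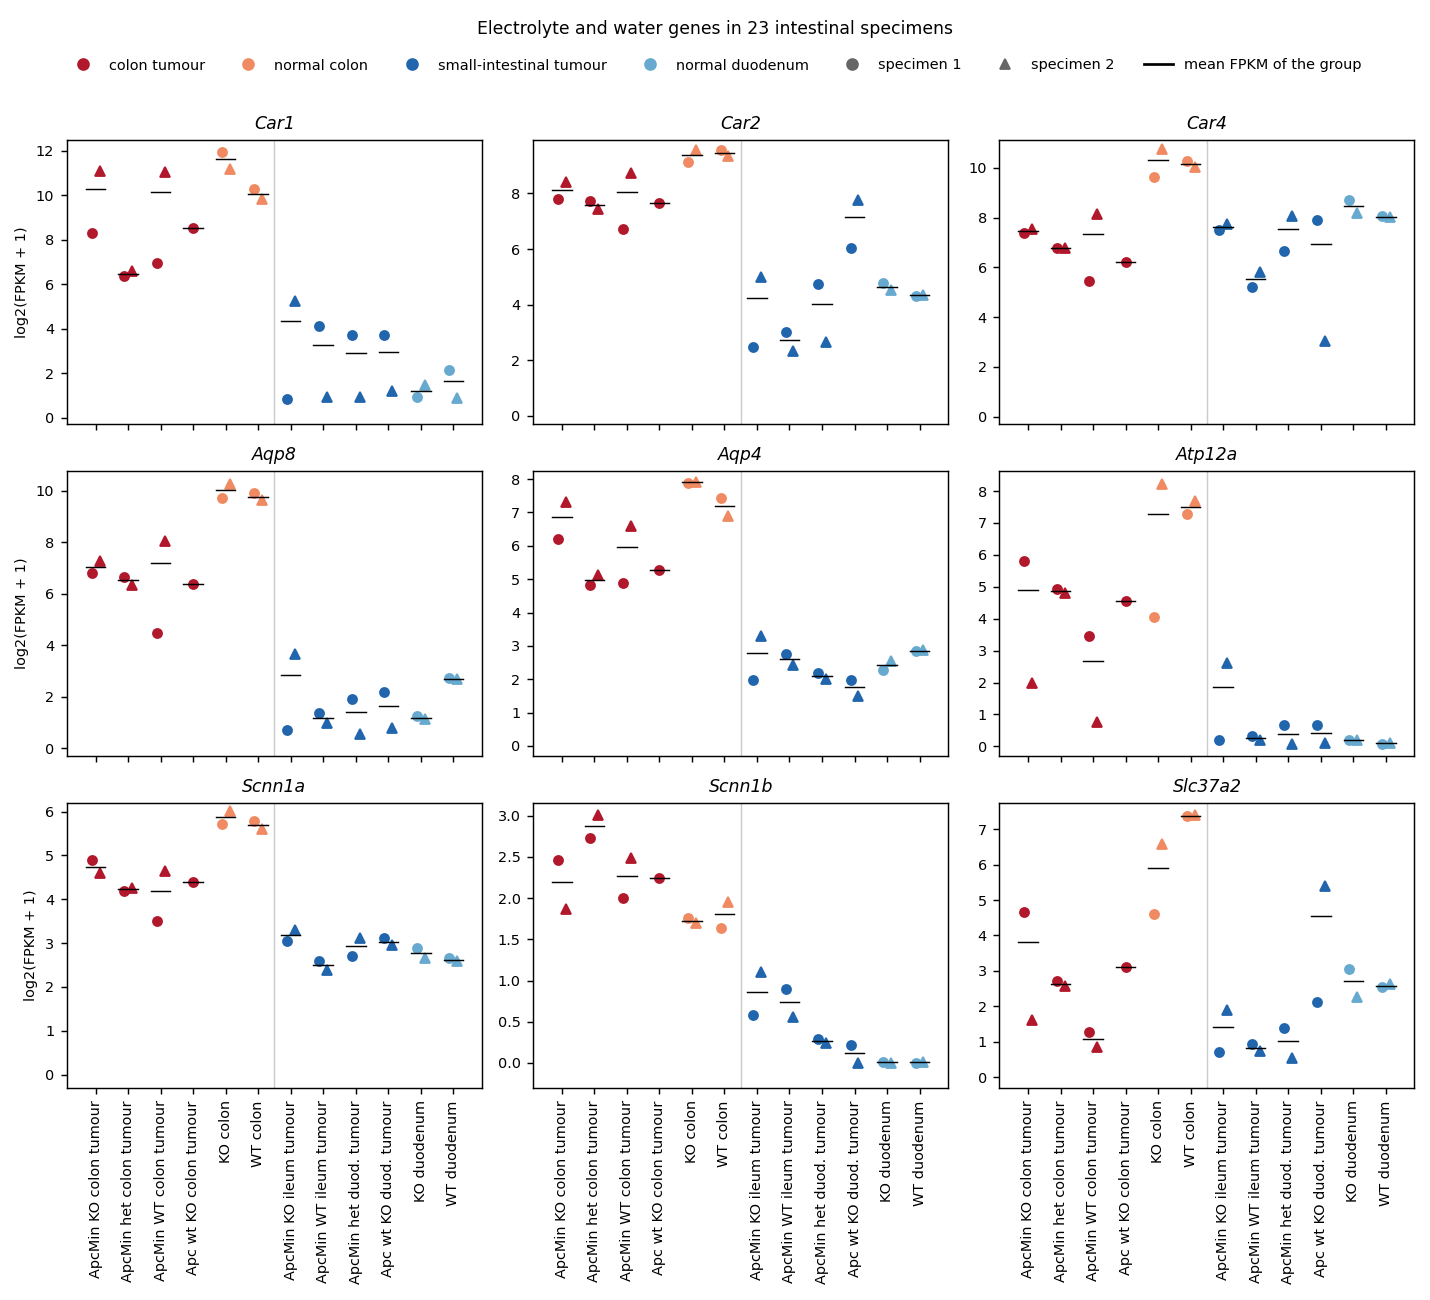
Level of each gene in every specimen, as log2(FPKM + 1), with the 6 colon groups left of the grey line and the 6 small-intestinal groups right of it; points are specimens and the bar is the group mean. Car4 is the member that stays high right of the line, and Scnn1b alone is higher in most colon tumours than in normal colon.

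Normal colon was set against normal duodenum to place the genes along the gut. Of the 9 members, 8 were higher in colon, beside 27.2% of the 14070 genes tested called higher and 28.4% called lower. Colonocyte genes were picked with earlier results of these data known, so this count is no independent support for a colonic pattern. Means were 958 ± 199 FPKM in colon (SD, n = 4) and 2.70 ± 2.45 FPKM in duodenum (SD, n = 3) for Aqp8, a difference of 7.94 ± 0.81 (SE) on the log2(FPKM + 1) scale (limma, Benjamini-Hochberg adjusted p = 4.62e-06). Car1 differed by 9.39 ± 1.31 (2101.5 ± 1371 FPKM in colon, 1.58 ± 0.639 FPKM in duodenum; limma, adjusted p = 6.38e-05) and Atp12a by 6.66 ± 1.07 (168 ± 117 FPKM in colon, 0.126 ± 0.0517 FPKM in duodenum; limma, adjusted p = 0.000196). No specimen of one organ reached into the other's range for any member. Car2 differed by 4.91 ± 0.69, Aqp4 by 4.90 ± 0.41, Slc37a2 by 3.87 ± 0.82, Scnn1a by 3.08 ± 0.22 and Scnn1b by 1.75 ± 0.18 (limma, largest adjusted p = 0.00148). Scnn1b and Atp12a could pass the filter on low values only through colon specimens, so their calls are no support, and the Scnn1b difference is compressed by the 1 added to each value. Car4 differed by 1.92 ± 0.93 and did not pass (limma, adjusted p = 0.0960), with 1201 ± 397 FPKM in colon and 325 ± 84.1 FPKM in duodenum. It passed when only these groups entered the fit, at the same difference (limma, adjusted p = 0.00246). Counting the wildtype duodenum as 2 specimens also took Car4 just past the threshold (limma, adjusted p = 0.0499). The tissues also differed in how they were taken, and their smooth muscle markers summed to 1498 to 1929 FPKM in colon and 576 to 651 FPKM in duodenum. Fewer cells of a type and less RNA per cell cannot be told apart in such bulk tissue.

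Within normal tissue, specimens labelled Cftr knockout were set against wildtype. No member passed in colon or duodenum, and 0% of the 14070 genes were called by limma in each (944 genes in colon and 361 in duodenum at an unadjusted p under 0.05, none of them a member). In colon Car1 had 3127 ± 1174 FPKM in knockouts and 1076 ± 233 FPKM in wildtypes (SD, n = 2 each), with both knockouts above both wildtypes, and a log2 difference of 1.50 ± 1.66 (limma, adjusted p = 0.918). Aqp4 also stood above wildtype in both knockouts, by 0.74 ± 0.52 (limma, adjusted p = 0.854). Slc37a2 stood below it in both, with 58.9 ± 50.4 FPKM in knockouts and 166 ± 2.36 FPKM in wildtypes, a difference of -1.80 ± 1.04 (limma, adjusted p = 0.820). Atp12a differed by -1.36 ± 1.35 (limma, adjusted p = 0.914), and by 0.72 without knockout colon 1. In duodenum the mean of Aqp8 was 1.28 ± 0.151 FPKM in knockouts (n = 2) and 5.52 FPKM in the 1 wildtype sample, a difference of -1.51 ± 1.25 (limma, adjusted p = 1.0). A difference that misses the threshold at these spreads is not shown to be absent.

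In colon tumours every member that passed a test was lower than in normal colon, except Scnn1b. The ApcMin heterozygous tumours, compared within run 1, were lower in 7 members and higher in Scnn1b, beside 26.7% of 13911 genes called lower and 26.8% called higher. Aqp4 had 30.6 ± 4.36 FPKM in these tumours (SD, n = 2) and 180.0 ± 58.2 FPKM in the normal colons (SD, n = 4), a change of -2.46 ± 0.23 (limma, adjusted p = 0.000101). Scnn1a changed by -1.53 ± 0.15 and Aqp8 by -3.41 ± 0.55 (limma, adjusted p = 0.000121 and 0.00122). Scnn1b had 6.34 ± 0.983 FPKM in tumours and 2.39 ± 0.319 FPKM in normal colon, and was higher by 1.11 ± 0.14 (limma, adjusted p = 0.000332). These 4 passed with each specimen left out in turn. Car1 changed by -4.37 ± 1.03, Slc37a2 by -3.64 ± 0.90, Car4 by -3.37 ± 1.12 and Car2 by -1.80 ± 0.57 (limma, largest adjusted p = 0.0330). Without heterozygous tumour 1 the changes were -4.26, -3.71, -3.36 and -1.95, and none of the 4 passed (limma, adjusted p = 0.0530, 0.0540, 0.130 and 0.0920); without heterozygous tumour 2 Car1 passed of the 4. Car2 and Car4 also failed without knockout colon 2 or wildtype colon 1 (limma, adjusted p = 0.0616 to 0.0816), and Car4 without wildtype colon 2 (limma, adjusted p = 0.0606). Atp12a changed by -1.67 ± 1.13 (limma, adjusted p = 0.241) and by -2.97 without knockout colon 1 (limma, adjusted p = 0.000513). The count of members called was 4 and 5 without heterozygous tumour 1 and 2.

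ApcMin wildtype tumours against wildtype colon, within run 2, were lower in 6 members, beside 19.1% of 13981 genes. Slc37a2 had 1.10 ± 0.416 FPKM in tumours and 173 ± 7.09 FPKM in colon in that run (SD, n = 2 each), a change of -6.39 ± 1.09 (limma, adjusted p = 0.00200). Scnn1a changed by -1.65 ± 0.29 (limma, adjusted p = 0.00219), and these were the members called with every specimen left out in turn. With these groups alone in the fit Slc37a2 passed, and Scnn1a (limma, adjusted p = 0.0770) and the 4 named next did not. Atp12a changed by -5.42 ± 1.38, Aqp8 by -3.48 ± 1.03, Car4 by -3.37 ± 1.21 and Aqp4 by -1.54 ± 0.54 (limma, largest adjusted p = 0.0481). Car2 changed by -1.74 ± 0.84 (limma, adjusted p = 0.124), Scnn1b by 0.46 ± 0.24 (limma, adjusted p = 0.156) and Car1 by -1.03 ± 1.61 (limma, adjusted p = 0.642). Tumour 1 was the lower of the pair in Car1, Car2, Car4, Aqp8, Aqp4 and Scnn1a, and without it the Car1 change was 1.01. The count of members called was 3 without tumour 1, 3 without wildtype colon 1 and 2 without wildtype colon 2. Without tumour 2 it was 6, with Car2 called at -2.74 and Atp12a not (limma, adjusted p = 0.0315 and 0.0582).

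In ApcMin knockout tumours against knockout colon, Scnn1a alone passed, beside 5.67% of genes called lower: 25.8 ± 3.89 FPKM in tumours and 58.1 ± 8.67 FPKM in colon (SD, n = 2 each), a change of -1.14 ± 0.29 (limma, adjusted p = 0.0317). It did not pass with any 1 of the 4 specimens left out (limma, adjusted p = 0.0674 to 0.152). Changes of the other members ran the same way as in the other ApcMin tumours, with Aqp8 at -2.92 ± 1.03, Car4 at -2.74 ± 1.21, Slc37a2 at -2.70 ± 1.09, Atp12a at -2.54 ± 1.38, Car1 at -1.82 ± 1.61, Car2 at -1.25 ± 0.84, Aqp4 at -1.22 ± 0.54 and Scnn1b at 0.42 ± 0.24 (limma, smallest adjusted p among these 8 = 0.0897). Against knockout colon, the single Apc wildtype tumour was lower in Aqp4, by 2.63 ± 0.64 on the log2 scale, and Scnn1a, by 1.47 ± 0.34, beside 5.71% of genes (limma, adjusted p = 0.0206 and 0.0185). Its Car4 change was -3.97 ± 1.44 and its Aqp8 change -3.60 ± 1.25 (limma, adjusted p = 0.0831 and 0.0736), and Scnn1b stood at 0.52 ± 0.28 (limma, adjusted p = 0.230). Scnn1a remained called without knockout colon 1, and neither gene was called without knockout colon 2 (limma, adjusted p = 0.0818 for Scnn1a and 0.0698 for Aqp4).

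**Figure D2:**
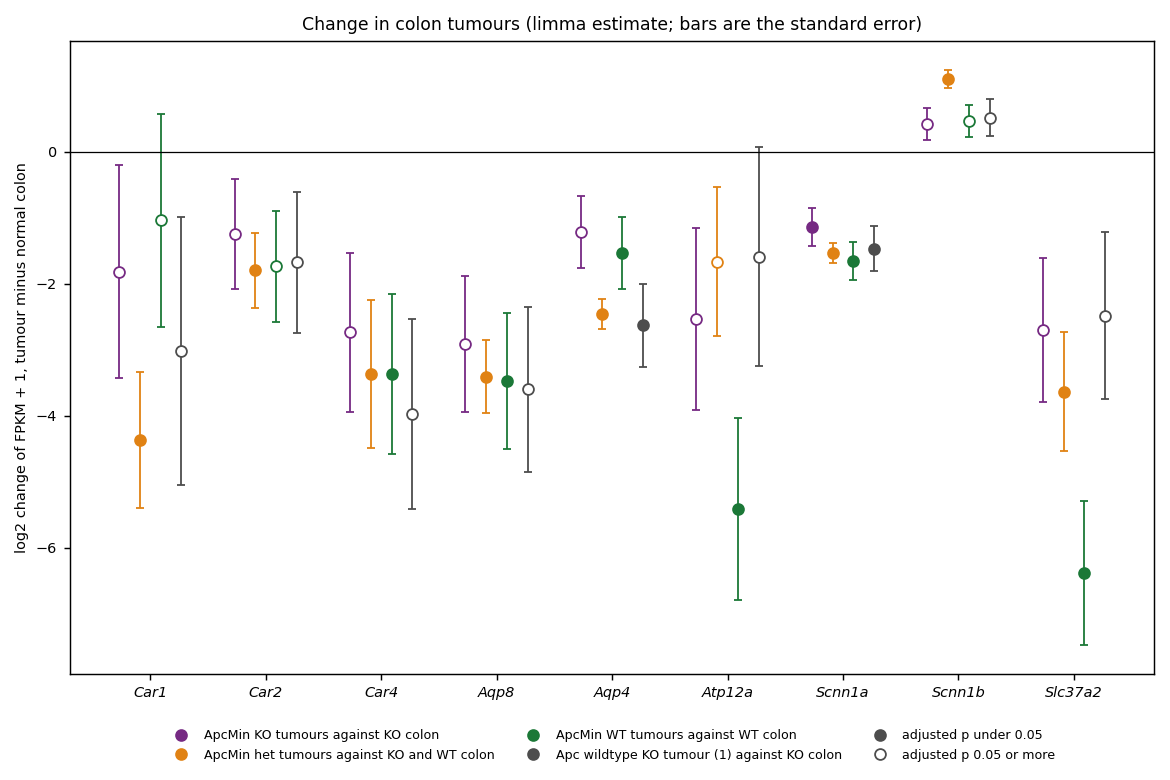
Change of each member in 4 kinds of colon tumour against normal colon, as a limma estimate on the log2(FPKM + 1) scale with its standard error; filled points have an adjusted p under 0.05. Scnn1a is filled in all 4 comparisons, between -1.65 and -1.14, and Scnn1b lies above 0 in all 4.

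The first 3 of these comparisons have ApcMin tumours of females on one side and normal tissue without Xist on the other, and colons labelled knockout stand in 3 of the 4, so they are not independent. Smooth muscle markers, 4 of 4 measured, summed to 75.7 to 781 FPKM in the colon tumours and to 1498 to 1929 FPKM in normal colon. Pan-epithelial markers, 6 of 6, summed to 4371 to 7292 FPKM in tumours and 4482 to 6814 FPKM in normal colon, and proliferation genes, 8 of 8, summed to 262 to 440.0 FPKM in tumours and 144 to 230 FPKM in normal colon. Red cell genes, 7 of the 9 listed, which bear on Car1 and Car2, summed to 54.1 to 376 FPKM in the ApcMin tumours, 24.0 FPKM in the Apc wildtype tumour and 25.3 to 57.1 FPKM in normal colon. Goblet cell markers, 4 of 4, summed to 729 to 4271 FPKM in tumours and 4795 to 10065 FPKM in normal colon. Zg16 held most of that sum, at 508 to 3627 FPKM in tumours and 4214 to 8600 FPKM in normal colon. Fcgbp was also lower in every tumour. Muc2 overlapped, at 92.6 to 853 FPKM in tumours and 202 to 675 FPKM in normal colon, and so did Clca1. Enteric glia markers, 4 of 4, summed to 0.394 to 3.12 FPKM in tumours and 4.54 to 7.61 FPKM in normal colon. Leukocyte markers, 4 of 4, summed to 13.3 to 28.8 FPKM in ApcMin tumours, 68.8 FPKM in the Apc wildtype tumour and 25.6 to 64.3 FPKM in normal colon, and endothelial ones, 4 of 4, to 53.8 to 87.0 FPKM in tumours and 49.6 to 65.3 FPKM in normal colon. Other surface colonocyte markers, 7 of the 8 listed, summed to 4540 to 12672 FPKM in tumours and 12350 to 17645 FPKM in normal colon. Lypd8 held most of that sum, at 3462 to 9798 FPKM in tumours and 8175 to 13646 FPKM in normal colon. Emp1 reached 779 and 591 FPKM in the second ApcMin knockout and wildtype tumours, against 81.0 to 518 FPKM in normal colon. Krt20, Ceacam1, Phgr1 and Tmigd1 also overlapped between tumours and normal colon. Cdhr5 was lower in every tumour, at 92.9 to 271 FPKM against 336 to 430 FPKM. Krt20 and Cdhr5 stood higher in every normal duodenum than in any normal colon. None of these lists had a marker at 0 in a colon group. The part of these tissue differences in the members' changes was not tested.

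Cftr genotype was then compared within ApcMin tumours. No member passed between knockout and wildtype colon tumours, where 0.0358% of genes were called by limma (1 member, Scnn1a, and 1705 genes at an unadjusted p under 0.05). Slc37a2 was the 1 member whose groups did not overlap, with 13.2 ± 15.7 FPKM in knockouts and 1.10 ± 0.416 FPKM in wildtypes (SD, n = 2 each), a log2 difference of 2.08 ± 1.09 (limma, adjusted p = 0.473). Scnn1a differed by 0.66 ± 0.29 (limma, adjusted p = 0.388), Aqp4 by 1.02 ± 0.54 (limma, adjusted p = 0.480), Atp12a by 1.78 ± 1.38 (limma, adjusted p = 0.619) and Car1 by 0.68 ± 1.61 (limma, adjusted p = 0.892). Without wildtype tumour 2, Scnn1a and Aqp4 passed at 1.23 and 1.87 (limma, adjusted p = 0.00394 and 0.0361). The difference between the tumour change in knockouts and that in wildtypes called 0.00715% of genes and no member (limma, 1189 genes and 1 member, Slc37a2, at an unadjusted p under 0.05). It was largest for Slc37a2, at 3.69 ± 1.54 (limma, adjusted p = 0.564), followed by Atp12a at 2.88 ± 1.95, and stood at 0.51 ± 0.41 for Scnn1a and -0.78 ± 2.28 for Car1. Without wildtype tumour 2 the Scnn1a difference was 1.08 and passed (limma, adjusted p = 0.0383).

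Between knockout and wildtype ileum tumours, limma called 0.25% of genes and no member (897 genes and 1 member, Scnn1a, at an unadjusted p under 0.05). Car4 had 182 and 213 FPKM in the knockout tumours, against 36.5 and 55.1 FPKM in the wildtype ones, so the pairs stood apart. Its difference was 2.11 ± 1.21 (limma, adjusted p = 0.954), and it passed when only these tumours entered the fit (limma, adjusted p = 0.0113). In the Apc wildtype duodenal tumours against knockout duodenum, where 8.11% of genes were called in either direction, no member passed (limma, 2 members, Car2 and Car4, and 3256 genes at an unadjusted p under 0.05). Car2 had 64.7 and 216 FPKM in these tumours, against 26.2 and 22.0 FPKM in duodenum, a difference of 2.26 ± 0.87 (limma, adjusted p = 0.135). Car4 had 239 and 7.30 FPKM, against 421 and 292 FPKM, a difference of -2.98 ± 1.17 (limma, adjusted p = 0.144) that passed without tumour 1 (-5.41; limma, adjusted p = 0.00312). Tumour 2, with the low Car4, was the one with the high Slc37a2 and the higher Car2, and Xist was at 34.2 FPKM in tumour 1 and 0.0212 FPKM in tumour 2.

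The organ difference of normal tissue was met again in tumours. ApcMin colon tumours were higher than ApcMin ileum tumours in 6 members, Car1, Car2, Aqp8, Aqp4, Scnn1a and Scnn1b, beside 10.6% of genes called higher and 13.4% called lower. The choice of colonocyte genes bears on this count too. Aqp4 had 88.6 ± 53.9 FPKM in colon tumours and 5.51 ± 2.54 FPKM in ileum tumours (SD, n = 4 each), a difference of 3.63 ± 0.38 (limma, adjusted p = 6.54e-05). Scnn1b differed by 1.42 ± 0.17, Car2 by 4.71 ± 0.59, Scnn1a by 1.57 ± 0.20, Aqp8 by 4.97 ± 0.73 and Car1 by 6.56 ± 1.14 (limma, largest adjusted p = 0.00172). All 6 passed with each tumour left out in turn. Scnn1b reached 1 FPKM in 1 ileum tumour, passed the filter only through colon specimens, and its call is no support. The 4 colon and 4 ileum tumours carry the same 2 animal numbers, so tumours of both organs share animals. Car4 stood at 169 ± 97.0 FPKM in colon tumours and 122 ± 88.8 FPKM in ileum tumours, a difference of 0.56 ± 0.86 (limma, adjusted p = 0.684), and Atp12a and Slc37a2 differed by 2.17 ± 0.98 and 1.04 ± 0.77 (limma, adjusted p = 0.137 and 0.373). Without ApcMin knockout colon tumour 2 the Atp12a difference was 3.13. Atp12a also reached 1 FPKM in 1 ileum tumour and passed the filter only through colon specimens, so a call of it would be no support.

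The colon specimens did not order the same way for every member. In the second ApcMin knockout tumour Car1 was high (2154 FPKM) while Atp12a and Slc37a2 were low (2.94 and 2.07 FPKM), and the second ApcMin wildtype tumour had the same arrangement (2119.5, 0.689 and 0.804 FPKM). Knockout colon 1, among normal colons, had the highest Car1 and the lowest Atp12a and Slc37a2. Hoxb13, a homeobox gene of the distal hindgut, was lowest in these specimens within their groups, at 24.8 FPKM in ApcMin knockout tumour 2 against 229 FPKM in tumour 1, at 10.3 FPKM in ApcMin wildtype tumour 2 against 59.0 FPKM in tumour 1, and at 89.9 FPKM in knockout colon 1 against 207 to 241 FPKM in the other normal colons. The heterozygous tumours, at 224 and 252 FPKM of Hoxb13, had the lower Car1 in the same specimen as the lower Hoxb13. Hoxa13, another distal hindgut gene, did not share the order of Hoxb13. It was at 15.1 FPKM in ApcMin knockout tumour 1 against 19.9 FPKM in tumour 2, and at 13.9 against 16.0 FPKM in the ApcMin wildtype pair. In knockout colon 1 it was at 22.7 FPKM, against 20.0 to 28.4 FPKM in the other normal colons. The whole list of distal hindgut Hox genes, 6 of 6, summed to 50.7 to 374 FPKM in ApcMin knockout tumours, 241 to 355 FPKM in heterozygous ones, 26.4 to 73.0 FPKM in wildtype ones, 315 FPKM in the Apc wildtype tumour, 114 to 273 FPKM in knockout colon and 237 to 272 FPKM in wildtype colon, and Hoxd12 was at 0 in both ApcMin wildtype tumours. The labels do not say from which stretch of colon a specimen was taken, and the part of position in these levels was not tested.

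**Figure D3:**
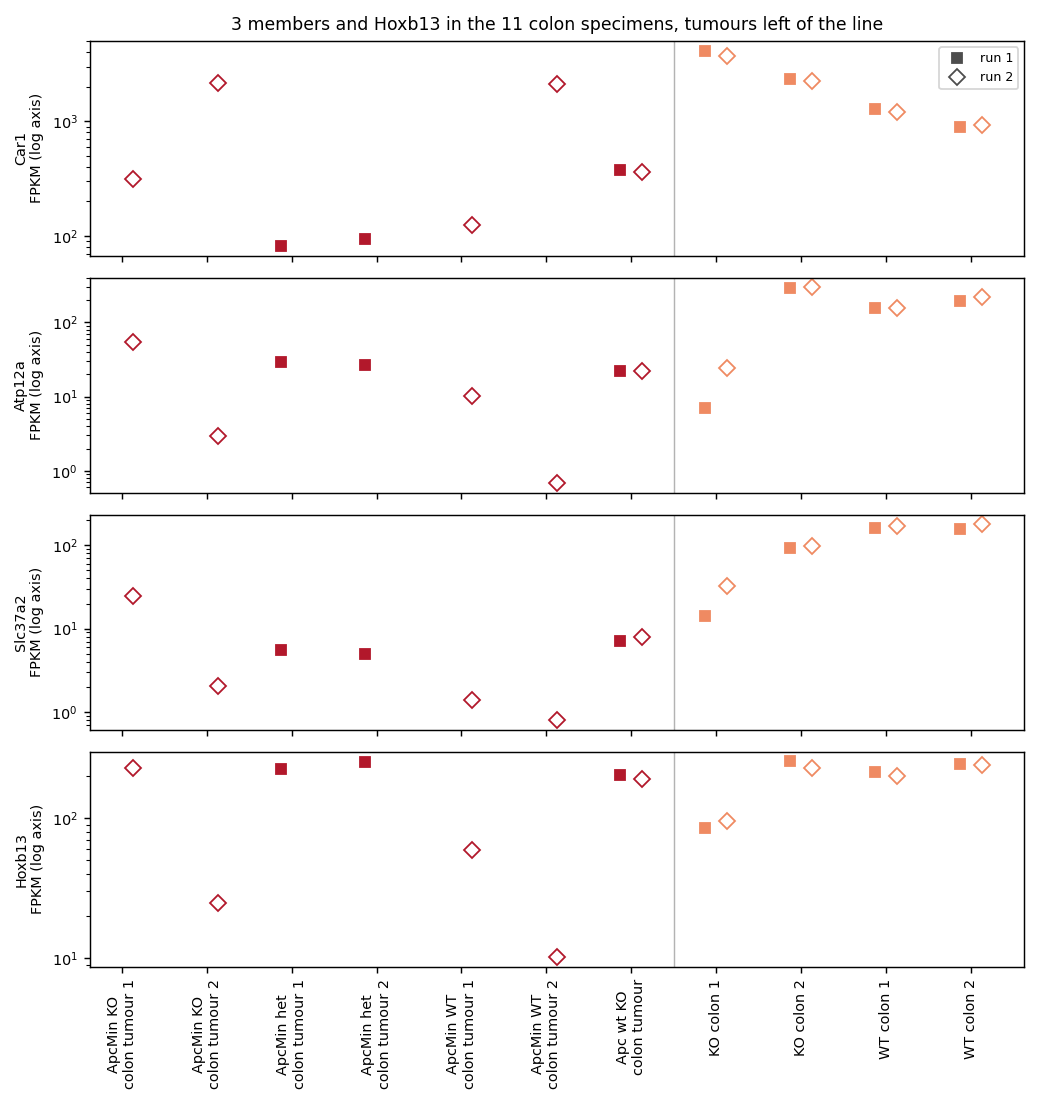
Car1, Atp12a, Slc37a2 and Hoxb13 in each of the 11 colon specimens, in FPKM on log axes, tumours left of the grey line, with run 1 as filled squares and run 2 as open diamonds. Where Hoxb13 is lowest within a pair, Car1 is highest and Atp12a and Slc37a2 are lowest, in ApcMin knockout and wildtype tumours and in knockout colon.

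Of the specimens, 11 were read in both runs, which gives a second library for each. Over the 88 pairs of a member and a specimen at 1 FPKM or more, the median ratio of the larger to the smaller run value was 1.06, and 13 pairs were over 1.5-fold apart. Of these, 2 lay in colon, of 45 colon pairs, both in knockout colon 1: Atp12a at 7.05 FPKM in run 1 and 24.1 FPKM in run 2, and Slc37a2 at 14.1 and 32.5 FPKM. Hoxb13 in that specimen differed less, at 84.9 and 94.9 FPKM. Markers of small-intestinal enterocytes set other colon libraries apart. In wildtype colon 2, Sis was at 67.6 FPKM in run 1 and 0.348 FPKM in run 2, and Apoa4 at 356 and 2.83 FPKM. In the Apc wildtype colon tumour, Apoa4 was at 84.4 and 3.37 FPKM. The ApcMin knockout colon tumours, read in run 2 only, held 133 and 38.2 FPKM of Apoa4, against 10.5 and 2.64 FPKM in the ApcMin wildtype ones. The enterocyte markers, 8 of 8, summed to 255 to 697 FPKM in these knockout tumours and to 85.7 to 89.1 FPKM in the wildtype ones. What this adds to comparisons with the knockout tumours was not tested. The run 1 library of wildtype colon 2, averaged with its run 2 library, enters normal colon against duodenum and knockout against wildtype colon. In the heterozygous tumour comparison it enters alone, without run 2. Leaving it out there is the same fit as leaving out wildtype colon 2, with a Car4 change of -3.44, so it is no separate check of the library. Over all specimens left out in turn, the Car4 change ranged from -3.66 to -3.07. The other 11 member pairs over 1.5-fold apart lay in duodenal specimens. Examples are Car1 in Apc wildtype duodenal tumour 1 (18.8 FPKM in run 1 and 5.63 FPKM in run 2) and in wildtype duodenum 1 (0.652 and 6.11 FPKM). Lanes of 1 library agreed within 1.17-fold wherever a member reached 10 FPKM. Low levels of some colonic members in duodenal specimens thus differed between runs, and the cause was not tested.

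**Figure D4:**
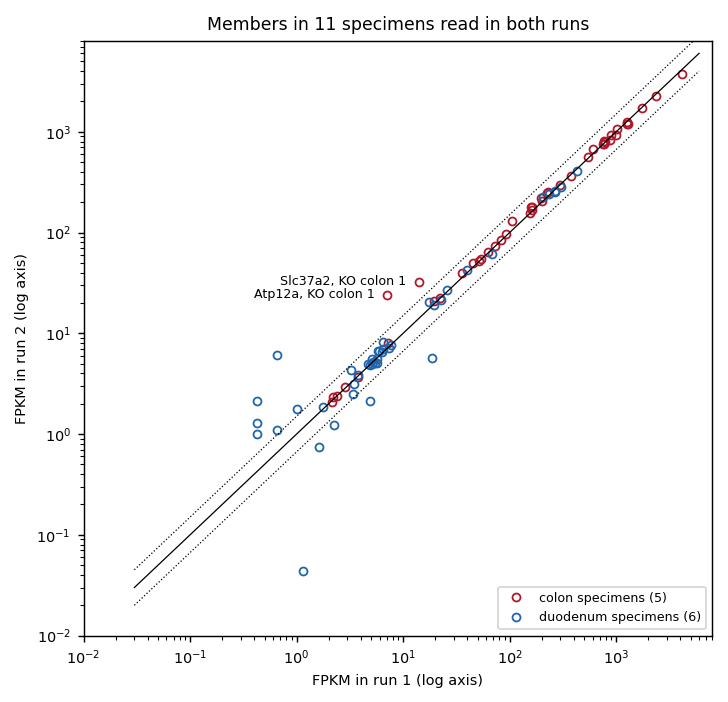
Level of each member in run 2 against run 1 for the 11 specimens read in both, in FPKM on log axes, with equality as the solid line and a 1.5-fold difference as dotted lines. The 2 colon points outside the dotted lines are Atp12a and Slc37a2 of knockout colon 1.

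Beside the 9 members, 24 other electrolyte and water genes were tested. In normal colon against normal duodenum, 9 of the 24 were higher and 9 lower, beside 27.2% and 28.4% of all genes. Hsd11b2, the enzyme that shields the mineralocorticoid receptor from glucocorticoids, was higher by 4.74, and Aqp3, Aqp11 and Aqp7 were lower by 3.64, 2.40 and 3.09 on the log2 scale (limma, largest adjusted p = 5.87e-06). In heterozygous colon tumours 14 were lower and 2 higher, beside 26.7% and 26.8% of all genes. None was higher in the other colon tumours, where 10 were lower in ApcMin wildtype ones (19.1% of all genes), 3 in ApcMin knockout ones (5.67%) and 5 in the Apc wildtype one (5.71%). The median log2 change of the list in the same order was -0.96, -0.66, -0.48 and -1.03, against -2.46, -1.74, -1.82 and -2.48 for the 9 members, while the median over all genes tested stayed between -0.0206 and -0.00291. Called lower in heterozygous tumours were Slc26a3, the chloride and bicarbonate exchanger of the apical membrane (-4.40), Slc9a2, a sodium and proton exchanger (-2.18), and Nr3c2, the mineralocorticoid receptor itself (-1.77; limma, largest adjusted p of the 3 = 0.00036). Nedd4l, a ubiquitin ligase that removes the sodium channel from the membrane, was called lower in all 4 kinds of colon tumour. Scnn1g, the gamma subunit of the channel, was called higher in the heterozygous tumours together with Scnn1b, by 0.82 (limma, adjusted p = 0.00127), with 2.04 and 2.87 FPKM in these tumours and 0.477 to 1.58 FPKM in normal colon. Fxyd4, a regulator of the sodium pump, was called higher there by 2.96 and lower in ApcMin wildtype tumours by 4.37 (limma, adjusted p = 0.0211 and 0.0148). Its levels were 65.7 and 112 FPKM in heterozygous tumours and 1.55 and 0.108 FPKM in wildtype ones, against 1.57 and 9.19 FPKM in knockout colon and 23.2 and 53.8 FPKM in wildtype colon. No gene of the list passed between knockout and wildtype in colon, duodenum, colon tumours or ileum tumours. Between colon and ileum tumours 2 were higher (Hsd11b2 and Nr3c2) and 7 lower, beside 10.6% and 13.4% of all genes. In Apc wildtype duodenal tumours Hsd11b2 was higher and Atp1b1 lower, 2 of 24 beside 8.11% of all genes.

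**Figure D5:**
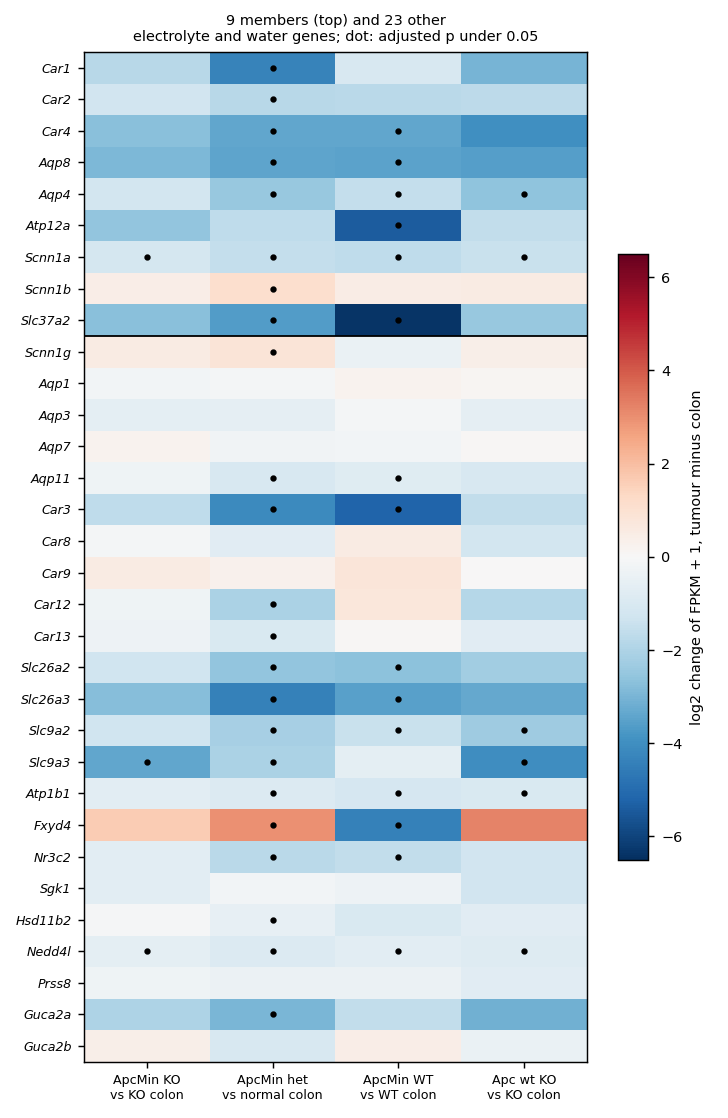
Change in 4 kinds of colon tumour against normal colon for the 9 members above the line and 23 of the 24 other electrolyte and water genes below it, as colour on the log2(FPKM + 1) scale, with a dot where the adjusted p is under 0.05. Blue cells prevail in both blocks, Scnn1b is red in all 4 columns, and Fxyd4 is blue in ApcMin wildtype tumours and red in the other columns.

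Over 22 samples, which share an organ difference and so fall into colonic and small-intestinal clusters, log2 levels of the members went together to different degrees. The closest pair was Aqp8 and Aqp4 (Pearson r = 0.974), and the least close was Car4 and Scnn1b (r = 0.136). Among the 10924 genes with a group mean of 5 FPKM or more, the 2 whose levels lay closest to each member were Fa2h and Foxd2 for Car1 (r = 0.972 and 0.966), Foxd2 and Fa2h for Aqp4 (0.988 and 0.986), Hao2 and Cyp2d34 for Aqp8 (0.990 and 0.979), Cyp2d9 and Golph3l for Scnn1a (0.982 and 0.978), and Zfp750 and Spata6 for Scnn1b (0.975 and 0.957). Tgm3 and Gm6086 lay closest to Atp12a (0.977 and 0.966), Tmem189 and Oit1 to Car2 (0.977 and 0.961), Slc20a1 and Aldh2 to Slc37a2 (0.933 and 0.928) and Trak1 and Pcp4l1 to Car4 (0.881 and 0.863). These coefficients describe the 22 samples and carry no test.

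The genes lie apart in the mouse genome (GRCm38) except for 2 pairs. Car1 (chr3:14766216-14808368, minus strand) and Car2 (chr3:14886273-14900770, plus strand) are neighbours, and Scnn1b (chr7:121865038-121918514) and Aqp8 (chr7:123462291-123468004) share chromosome 7, both on the plus strand. Aqp4 lies at chr18:15389496-15410982 on the minus strand. Scnn1a lies at chr6:125320659-125344943 and Car4 at chr11:84957786-84966044, both on the plus strand. Atp12a (chr14:56365068-56388550, plus strand) shares 557 exonic bases with the antisense gene Gm10873, and Slc37a2 (chr9:37227585-37255738, minus strand) shares 241 with the antisense gene Gm48081. The sources used here do not say whether strand was kept, so reads in the shared bases cannot be assigned, and the values of Atp12a and Slc37a2 are uncertain to that extent.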

How the data were processed

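Libraries of polyadenylated RNA from 23 mouse gut specimens were read in 2 runs, 11 specimens in both and 12 in 1. The authors' deposited table holds FPKM per gene for 68 lane columns; per the submitters' notes the build was mm10, and the tools were TopHat2 2.0.13, FastQC and Cuffnorm. It holds no read counts, so no counting interval was computed, and relative depth came from its low values. Lanes were averaged per run and runs per specimen, and the wildtype duodenum specimens, which differed about as much as lanes, were averaged as 1 sample, leaving 22. Log2(FPKM + 1) values were tested with limma 3.58.1 (R 4.3.3), trend on, over genes at 1 FPKM or more in 2 or more samples, with Benjamini-Hochberg adjustment over all genes tested. All groups shared 1 fit, except that tumours read in 1 run were compared within that run. The fit was tested on simulated data, with the same small spread for every gene, and recovered nearly all changes built in. Most pairs of real specimens spread more, by up to 0.440 on the log2 scale in ApcMin wildtype colon tumours. The recovery thus checks the code and cannot give the power in these data. The members and lists were chosen with earlier results of these data known. Besides the 9 members, the text names the 2 genes most correlated with each and up to 4 called genes of the wider list per comparison. It also names Fxyd4, Scnn1g, Hoxb13, Hoxa13, Lypd8 and the other single surface colonocyte and goblet cell markers, chosen after their values were seen. The list counts include 1 gene that is not reported here by name. Alternatives covered the pseudocount, the filter, scaling, the runs, the samples fitted, the replicate block and each specimen left out. Replicate numbers are animal numbers in normal colon and duodenum, so these specimens are paired there. Their deviations correlated at 0.0332 in knockouts, from 1 pair of animals, and at 0.0103 in wildtypes. The wildtype value cannot bear on pairing, because the wildtype duodenum specimens differed about as much as lanes. No call changed with the block.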

Additional observations from a re-analysis of the deposited data

Results flagged for a closer look

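Aqp4 went opposite ways with the knockout label in the 2 normal tissues. Its mean in knockouts over that in wildtypes was 1.65 in colon, with both knockouts above both wildtypes, and 0.691 in duodenum, with both knockouts below. The difference between these ratios was not tested.

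Slc37a2 went opposite ways in ApcMin colon tumours and in normal colon. Knockout over wildtype was 12.0 in the tumours and 0.354 in colon, and neither contrast passed its own test. The difference between the contrasts, within run 2, was 3.69 ± 1.54 on the log2(FPKM + 1) scale and did not pass (limma, unadjusted p = 0.0360, Benjamini-Hochberg adjusted p = 0.564).

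ApcMin heterozygous duodenal tumours enter no comparison here. Values of some members in them stood above every normal duodenum, while other members did not. Car1 was at 12.0 FPKM in tumour 1, against 3.38 FPKM in the highest normal duodenum, and Scnn1a at 7.66 FPKM in tumour 2, against 6.44 FPKM. The other tumour of the pair had 0.920 FPKM of Car1 and 5.52 FPKM of Scnn1a. Below 1 FPKM, Scnn1b was at 0.225 and 0.187 FPKM in tumours 1 and 2, against at most 0.00863 FPKM in normal duodenum. Atp12a was at 0.577 FPKM in tumour 1 and 0.0621 FPKM in tumour 2, against at most 0.160 FPKM. Car2, Car4, Aqp8, Aqp4 and Slc37a2 lay below the highest normal duodenum in both tumours. Hoxb13 was at 5.53 and 2.72 FPKM in tumours 1 and 2, against 0.454 FPKM. Both tumours were read in run 1 only, and in Apc wildtype duodenal tumour 1, read in both, Hoxb13 was at 11.0 FPKM in run 1 and 0.959 FPKM in run 2.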

How the results depend on the processing

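Over 67 tests of single members and their 826 alternatives, 758 kept direction and call, 42 lost and 17 gained a call, and 9 changed sign. All 9 left out 1 specimen: Atp12a in colon (0.72 without knockout colon 1; range -3.44 to 0.72), Car1 in ApcMin wildtype tumours (1.01 without tumour 1; range -3.08 to 1.01), Atp12a between ApcMin knockout and wildtype colon tumours (range -0.14 to 3.69), Car1 there (-0.71 without knockout tumour 2, -1.36 without wildtype tumour 1; highest 2.72), Car4 between colon and ileum tumours (range -0.10 to 1.23), and in the difference of tumour changes Car1 (0.60 without knockout tumour 1; range -2.83 to 1.26) and Scnn1a (range -0.0573 to 1.08). The cause was not tested.

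With the compared groups alone in the fit, 1 member passed in ApcMin wildtype tumours (Slc37a2), 3 in ApcMin knockout tumours, 6 in the Apc wildtype tumour and 1 between ileum tumours. With single specimens left out, 2 to 6, 0 to 0 and 0 to 1 passed in the same colon tumours, 4 to 9 in heterozygous ones, 0 to 2 between ApcMin colon tumours, 0 to 1 in duodenal tumours and 0 to 1 for the difference of tumour changes; an arm left with 1 sample was assumed to vary like the other groups. A pseudocount of 0.1, or no filter, took Car4 and Aqp4 from the calls in ApcMin wildtype tumours, leaving 4. Leaving out the run 1 library of knockout colon 1, chosen after seeing the data, added Atp12a to the calls in heterozygous tumours. With the replicate block the counts of members called stayed as they were, at 8 for colon against duodenum; the Apc wildtype colon tumour, 1 specimen, allowed no block. Depth is known only in relative terms, so low levels carry a counting error that cannot be stated.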
